A study of Rapana venosa with 9 samples.

Results

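The veined rapa whelk (Rapana venosa) is a marine snail that feeds on microalgae as a swimming larva and settles as a crawling, carnivorous juvenile. The genes described here are predicted microRNA (miRNA) targets whose transcripts were abundant in precompetent larvae and much lower after metamorphosis, at or near 0 for most of them. They came from a table that pairs each miRNA with target genes and gives the mRNA level of each gene as FPKM, fragment counts scaled to transcript length and to sequencing depth. The genes were selected on their deposited levels in 2 stages. A gene was taken when its FPKM in precompetent larvae was at least 50 and at least 20 times its FPKM in postlarvae plus 0.1, and 8 genes were left out by name. Of the 11401 distinct genes in the table, 795 had at least 50 FPKM in precompetent larvae, and 185 of these (23.3%) met both limits. Of the 8 named genes 5 met both limits, a conotoxin (c124801_g1), an endoglucanase (c137870_g1), a family 10 cellulase (c150903_g1), a ciliary dynein intermediate chain (c154991_g1) and tektin-3 (c155866_g1), and leaving them out gave 180 genes. Since the levels in precompetent larvae and postlarvae chose the genes, the difference between these stages is described and not tested. These limits did not use the level in competent larvae. That level did enter the opposite stage profiles of miRNA and gene for which the table had been filtered. Its percentage of the precompetent level also shares that level with the limits, so it is a description only.

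Small RNA was sequenced at 3 stages without any treatment, in hatchery-reared offspring of wild parents. Precompetent larvae (Pre-CL) had 3 spiral whorls on the shell, competent larvae (CL), which are ready to metamorphose, had 4, and postlarvae (PL) were juveniles. Each stage had 3 biological replicates of 40 to 100 pooled individuals, giving 9 libraries. The library protocol names an individual intestine as the source of RNA, whereas the sampling protocol describes whole animals. In the table, all 34 tektin, axonemal dynein and radial spoke genes had at least 1 FPKM in Pre-CL. Such genes build motile cilia, as on the swimming organ. Their medians were 33.8 FPKM in Pre-CL, 12.9 in CL and 5.62 in PL. These levels come from an earlier mRNA study, so they do not show the source of the small RNA. Muscle miR-1-z had 73482 to 299764 counts per library and neural miR-124-y 200 to 2167.

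The gene levels were the authors' stage means, taken from an earlier mRNA study, without replicate values or depth. They therefore carry no error here, and no gene was tested. The 9 small RNA libraries held 8235539 to 10694742 clean reads, of which 3762511 to 6781384 were counted to miRNAs. A floor of 3 counts corresponded to 0.399 to 0.694 CPM (counts scaled to a common library size). In pooled animals, fewer cells of a type and less RNA per cell cannot be told apart.

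At metamorphosis, swimming gastropod larvae lose the velum, a ciliated lobe used to swim and to collect algae, and rebuild the gut, the shell-forming mantle and the foot for life on the bottom. A miRNA guides a silencing complex to a messenger RNA by pairing its seed, bases 2 to 8 from its 5′ end, with a complementary site that usually lies in the 3′ untranslated region. A target gene can be destabilised or less translated as a result. The deposited table is a prediction filtered for opposite stage profiles of miRNA and gene, and no binding was measured.

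The miRNAs paired with the largest numbers of these 180 genes, and the single miRNA paired with the second most abundant gene, are shown because the pair counts below rest on them. Each is written 5′ to 3′ as deposited, with T for U, and the seed is in capitals.
miR-4154-y: tTTTGTTGgttttcggag
miR-5964-y: cTATCAACtgtcgactgt
miR-1988-x: aGTGGTTTtctgttgcacatgc
miR-277-y: tAAATGCAtgatctggtatct
Predicted miRNA with seed GAAAATT: aGAAAATTgagtgtgtgaacc
miR-8158-y: cTTTGTACttgtgaaact
miR-315-x: tTTTGATTgttgctcagaaagcc
let-7-y: cTGTACAAcctgctagctttcc
miR-5606-x: gTGAAGAGacatgagagg
Predicted miRNA with seed TACAGAC: aTACAGACtgtcatggaattgcc
miR-82-y: tGAGATCAtcgtaaaaaccagtt
The miRNAs called predicted were not known from other species and came from the authors' own reads. None of these 11 shared a seed with another miRNA of the set. The next pair is shown because both miRNAs have the same seed and were predicted to target largely the same genes.
miR-67-y: tCACAACCtgcatgaatgaggact
miR-307-y: tCACAACCtccttgaatgagtgt

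In Pre-CL the 180 genes ranged from 50.4 to 4790 FPKM, with a median of 135. In CL they ranged from 0.12 to 889 FPKM, with a median of 20.01. In PL they ranged from 0 to 141 FPKM, with a median of 0.333. Thus 114 genes exceeded 100 FPKM in Pre-CL, 24 did so in CL and 1 did so in PL. In PL, 112 genes were under 1 FPKM, 31 of which were listed at 0, and 6 were at 10 FPKM or more.

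The set was chosen for high levels in Pre-CL and low levels in PL. Its shares of the measured target mRNA at those stages partly follow from that choice and are a description only. Its summed FPKM was 20.6% of that of all genes in the table in Pre-CL, 3.90% in CL and 0.236% in PL. Without the 3 most abundant genes these shares were 17.0%, 3.20% and 0.161%. The share in CL was thus already well under the share in Pre-CL whether or not those genes were counted.

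The level at competence was similar in relative terms across most of the set. The CL level was a median of 15.0% of the Pre-CL level, the middle 50% of genes lay between 9.56% and 20.1%, and 151 of 180 genes lay between 5% and 30%. For the other 615 genes with at least 50 FPKM in Pre-CL, the median CL level was 97.5% of the Pre-CL level and the median PL level was 63.2%. These 615 include 6 of the genes left out by name, without which the median CL level was 97.7%. Those other genes fell into a broad group near 100%, with 235 genes between 90% and 140%, and a lower group of 148 genes under 35% whose median PL level was 14.5% of Pre-CL. Among the 180 genes, 177 lay under 35%. Spearman's rho between the Pre-CL level and this percentage was -0.0078 over the 180 genes, which share their libraries.

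**Figure D1:**
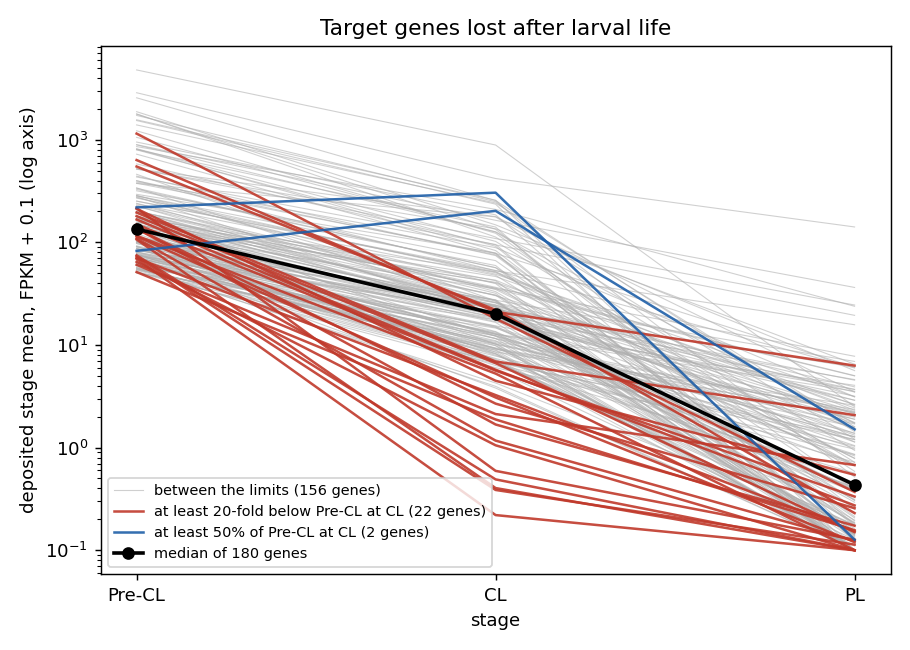
Deposited stage means of the 180 genes (vertical log axis, FPKM + 0.1) in Pre-CL, CL and PL; each line is a gene, red for the 22 genes at least 20-fold lower at competence, blue for the 2 genes that kept at least 50% of their level, and black for the median. The median ran through 135, 20.01 and 0.333 FPKM, and only the 2 blue lines were higher in CL than in Pre-CL.

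**Figure D2:**
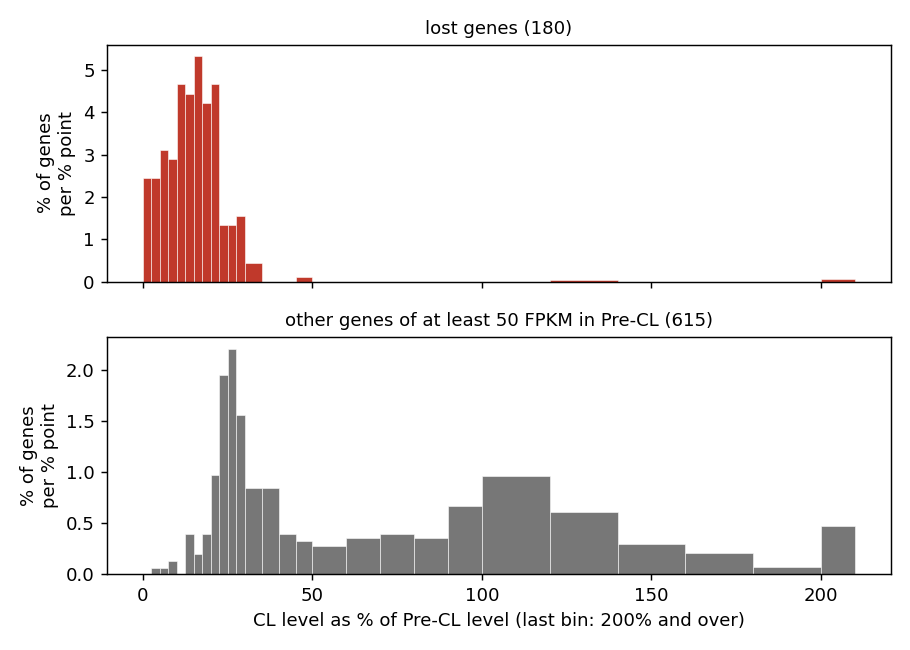
Distribution of the CL level as a percentage of the Pre-CL level (horizontal axis) for the 180 lost genes (top) and the other 615 genes with at least 50 FPKM in Pre-CL (bottom), as percent of genes per percentage point; the last bin holds all values of 200% and over. The lost genes had a median of 15.0%, against 97.5% for the other genes.

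By the stage at which the transcripts disappeared, the genes fell into 3 classes. In 22 genes the Pre-CL level was already at least 20 times the CL level plus 0.1; over all 795 genes with at least 50 FPKM this applied to 2.89%. In 2 genes the CL level was at least 50% of the Pre-CL level, which applied to 53% of the 795. The other 156 genes lay between these limits, lower in CL but still present. On the log2 scale with 0.1 added, the larger part of the total difference lay before competence in 45 genes and after it in 135, and among the 665 of the 795 genes that were lower in PL it lay before competence in 40.6%. With 1 in place of 0.1 added, it lay before competence in 72 of the 180 genes and in 44.7% of the 665. This split uses the PL levels that chose the genes and the 45 genes depend on the value added, so the counts are given as a description only.

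The 22 genes lost before competence were poorly annotated. Only 4 of them had a protein hit, against 106 of the 156 genes between the limits, and 7 had any annotation. Their median levels were 126 FPKM in Pre-CL, 2.78 in CL and 0.055 in PL. The most abundant was c121025_g1, without annotation, at 1148, 17.95 and 0.27 FPKM in Pre-CL, CL and PL.

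Genes with the lowest CL level relative to Pre-CL were nearly absent from competent larvae. Unannotated c83106_g1 had 69.1, 0.12 and 0 FPKM in Pre-CL, CL and PL, so that CL was at 0.174% of Pre-CL. The gene c137216_g1, which resembles a glycine-rich cell wall structural protein of the sea hare Aplysia californica, had 215, 0.493 and 0.0267 FPKM. A second gene of the same assembly component with the same top hit, c137216_g2, had 60.4, 2.02 and 0.577 FPKM and also belonged to the 22. The unannotated c137753_g1, c154397_g1 and c13005_g1 had 0.303, 0.287 and 0.39 FPKM in CL, against 106, 72.4 and 74.7 FPKM in Pre-CL. Of these, c154397_g1 was the gene with the most predicted miRNAs, 13, in the whole set.

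Only 2 genes were as abundant in CL as in Pre-CL. The unannotated c153105_g2 had 82.5, 203 and 1.41 FPKM in Pre-CL, CL and PL. The gene c147384_g1, whose single annotation is the N-terminal region of lipase 3, had 219, 305 and 0.0267 FPKM. Both were thus lost between competence and the juvenile. Next in order came c147734_g1, a Cu/Zn superoxide dismutase, an enzyme that removes superoxide, with 375, 177 and 1.11 FPKM and a CL level at 47.2% of Pre-CL. The following genes were c143290_g1, a sodium- and chloride-dependent glycine transporter, at 34.8%, and unannotated c47824_g1, at 34.2%.

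The genes nearest to the limits of the choice show where it cut. Just inside the minimum were c157346_g1, c152038_g1 and c142723_g1, at 50.4, 50.5 and 50.7 FPKM in Pre-CL, and just outside it c139412_g1, c148312_g1 and c106684_g1, at 49.85, 49.65 and 49.2 FPKM. For the fold over PL plus 0.1, c154133_g4, c131171_g4 and c154917_g2 lay just inside at 20.3, 21.3 and 21.8, and c63315_g1, c152334_g1 and c151684_g2 just outside at 19.8, 19.4 and 19.1.

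Of the 180 genes, 126 had an annotation and 110 had a protein hit. The share without a protein hit, 38.9%, lay between that of all genes in the table (57.9%) and that of the other 615 abundant genes (22.8%). Hits were mostly molluscan, with 34 genes closest to the limpet Lottia, 32 to the sea hare Aplysia and 25 to the oyster Crassostrea, and 61 hits were to hypothetical or uncharacterised proteins. The genes came from 172 assembly components, 7 of which held several members, so some entries may be parts or copies of the same gene. Their median length was 1216.5 nt, against 1427 nt for all genes and 1725 nt for the other 615. Of all 795 genes with at least 50 FPKM in Pre-CL, 23.3% met both limits, the share to set beside the group counts below. The family lists below, such as ependymin and C1q, were formed after the values were seen, so their counts are a description only.

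Digestive enzymes were among the most abundant genes of the set. Cathepsin L (c131243_g1), a lysosomal cysteine protease that also digests food protein in many invertebrates, had the highest level of all, 4790, 889 and 2.40 FPKM in Pre-CL, CL and PL. Trypsin-1 (c133924_g1), a secreted serine protease of the gut, had 1727, 249 and 0.417 FPKM. Of 288 genes in the table with digestive terms, 35 had at least 50 FPKM in Pre-CL. Of these 35, 13 belonged to the set (37.1%), 9 of them by protein name. The other 4 matched by a protein domain only and included c127784_g1 and c128323_g1, whose protein hits are an LDL receptor-related protein and a C1q protein. The 13 had a median CL level at 14.4% of Pre-CL. Digestive genes were not lost as a class, since 113 of the 288 were higher in PL than in Pre-CL. Over the digestive genes present in Pre-CL, the median PL level was 78.0% of Pre-CL. The endoglucanase c137870_g1 and the cellulase c150903_g1, left out by name, also met both limits.

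Several of these enzymes act on plant and algal polymers. An alpha-amylase (c145249_g1), which splits starch, had 87.6, 6.77 and 0.0767 FPKM in Pre-CL, CL and PL. The glycosyl hydrolase family 9 endoglucanase c153591_g1 and the endo-beta-1,4-glucanase c135906_g1, which cut cellulose, had 75.7 and 72.4 FPKM in Pre-CL, 8.16 and 6.85 in CL, and 0 and 0.05 in PL. A family 1 glycosyl hydrolase close to beta-glucosidase (c155607_g1) had 141, 30.6 and 0.583 FPKM. A pancreatic lipase-related gene (c150680_g1), of a family that cleaves dietary fat, had 57.9, 3.85 and 0 FPKM. All of these were lower in CL than in Pre-CL, and none exceeded 1 FPKM in PL.

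Close relatives with opposite profiles were seen among the astacins, zinc metalloproteases named after a crayfish digestive enzyme. The astacins c156614_g4 and c156614_g2 had 329, 56.7 and 0.573 FPKM and 284, 48.9 and 3.02 FPKM in Pre-CL, CL and PL. Another astacin of the same assembly component, c156614_g1, had 0.1, 159 and 351 FPKM and was therefore not in the set. The larval and juvenile astacins thus ran in opposite directions over the same stages. Of 19 astacin genes in the table, 2 had at least 50 FPKM in Pre-CL, and both were lost.

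Ependymin-related genes were numerous. Ependymins are secreted glycoproteins first described in fish brain fluid, and related proteins occur widely in invertebrates. Of 22 such genes in the table, 12 had at least 50 FPKM in Pre-CL and 9 belonged to the set, with PL levels of 0 to 5.53 FPKM and Pre-CL levels of 136 to 1877 FPKM. Their median CL level was 7.89% of Pre-CL, below the lower quartile of the whole set. The most abundant, c141108_g1, had 1877, 148 and 5.53 FPKM in Pre-CL, CL and PL. The next, c131099_g1 and c149889_g2, had 1775 and 1055 FPKM in Pre-CL, 134 and 126 in CL, and 0.15 and 0.84 in PL. A lower member, c149877_g2, was already among the 22 genes lost before competence, with 213, 4.38 and 0.443 FPKM.

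The family was not lost as a whole. The ependymin-related c145418_g1 had 228, 127 and 257 FPKM in Pre-CL, CL and PL, and c140109_g1 had 0, 31.1 and 50.5 FPKM. In all, 3 of the 22 genes were higher in PL than in Pre-CL. Of the 9 lost genes, 6 shared the same top hit in Lottia, so they are close relatives of each other or fragments of fewer genes.

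Proteins with C1q domains can recognise microbial surfaces and have expanded in molluscs. Genes annotated as C1q-like were represented by 6 out of 7 with at least 50 FPKM in Pre-CL and 13 in the table. All 6 matched by protein name. They ranged from 0.0167 to 0.683 FPKM in PL and from 55.0 to 252 FPKM in Pre-CL, with a median CL level at 18.3% of Pre-CL. The most abundant, c149069_g1, had 252, 51.7 and 0.683 FPKM in Pre-CL, CL and PL, and c62490_g1 had 240, 26.5 and 0.0367 FPKM. A C1q gene outside the set, c135497_g1, had the opposite profile, 1.94, 33.4 and 116 FPKM.

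C-type lectins, which bind sugars in a calcium-dependent manner, accounted for 4 of 5 genes with at least 50 FPKM in Pre-CL, 3 of the 4 by protein name. Of 16 such genes in the table, 3 were higher in PL than in Pre-CL. A perlucin-like gene (c135682_g1), from a family first found in abalone shell nacre, had 377, 77.7 and 0 FPKM in Pre-CL, CL and PL. No lectin domain was listed for it. The Fc epsilon receptor-like lectin c129336_g1 had 270.1, 50.4 and 1.66 FPKM, and the mannose receptor-like c116108_g1 had 113, 19.3 and 0.283 FPKM. Here too a relative went the other way, since the collectin-12-like gene c117735_g1 had 0.4, 31.1 and 153 FPKM. Of 172 genes with stress or immunity terms in the table, 67 were higher in PL than in Pre-CL. Over those present in Pre-CL, the median PL level was 78.1% of Pre-CL. Of the 32 with at least 50 FPKM in Pre-CL, 13 belonged to the set (40.6%). The median CL level of these 13 was 17.1% of Pre-CL. These included a chorion peroxidase-like gene (c134216_g1) and a glutathione S-transferase (c100897_g1), which detoxifies reactive compounds, with 0.0867 and 0 FPKM in PL, against 199 and 131 FPKM in Pre-CL.

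Of 27 genes with shell or matrix terms and at least 50 FPKM in Pre-CL, 15 belonged to the set (55.6%), 10 of them by protein name. Such genes were not lost as a class, since 77 of the 196 in the table were higher in PL than in Pre-CL. Over those present in Pre-CL, the median PL level was 69.5% of Pre-CL. The terms are broad, and the 15 include the receptor-like c154133_g4. The second most abundant gene of the set, c154133_g4, carries LDL receptor class A repeats, modules that bind lipoproteins and other ligands, and resembles LDL receptor-related protein 1. It had 2873, 419 and 141 FPKM in Pre-CL, CL and PL, and was the only gene of the set above 100 FPKM in PL. A gene of the same kind, c127784_g1, had 387, 88.8 and 3.03 FPKM. The peritrophin-like c133938_g1, with a chitin-binding domain found in gut linings and shell matrix, had 724, 77.9 and 5.98 FPKM. A tyrosinase-like gene (c152454_g1), whose relatives oxidise tyrosine and occur in molluscan shell, had 180, 35.6 and 7.67 FPKM.

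Structural matrix genes followed the same course at lower levels. The von Willebrand factor D and EGF domain gene c151651_g1 had 442, 74.2 and 0.0933 FPKM in Pre-CL, CL and PL. The collagen VI alpha chains c145001_g1, c131659_g1 and c154603_g1, had 0, 3.95 and 1.46 FPKM in PL, against 92.5, 89.7 and 78.0 FPKM in Pre-CL. They were all of the collagen VI genes with at least 50 FPKM in Pre-CL. The family was not lost as a whole, since 2 of its 8 genes in the table were higher in PL than in Pre-CL. Among genes with LDL receptor class A repeats, 6 of 7 with at least 50 FPKM in Pre-CL were lost, including a hemicentin-1-like gene (c151449_g1) with 202, 30.1 and 2.55 FPKM and a cubilin-like gene (c151199_g1) with 136, 1.58 and 0.0733 FPKM. Others of this family had opposite profiles, such as c124563_g1 with 0.6, 175 and 847 FPKM and c132623_g1 with 8.56, 344 and 475 FPKM. Likewise the chitin-binding c124969_g1 had 50.4, 240 and 823 FPKM.

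Calcium-binding proteins with EF-hands, the helix-loop-helix motif that holds a calcium ion, accounted for 9 of 32 genes with at least 50 FPKM in Pre-CL. That share, 28.1%, was near the 23.3% of all 795 genes that met both limits. The highest of the 9 genes, c119018_g1, also has the calcium-binding region of the matrix protein SPARC. It had 950, 185 and 0.0767 FPKM in Pre-CL, CL and PL. The others named by level, c126481_g1, c143677_g1 and the SARP-19-like c112229_g1, had 858, 812 and 252 FPKM in Pre-CL, 209.5, 83.1 and 53.2 FPKM in CL, and 23.7, 0.0733 and 5.87 FPKM in PL. Their CL levels lay between 10.2% and 24.4% of Pre-CL.

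Genes of cilia were present as well. Of 41 genes with cilia or axoneme terms and at least 50 FPKM in Pre-CL, 4 belonged to the set (9.76%), of which 2 by protein name. This share was under the 23.3% of all 795 genes that met both limits. The genes left out by name include 2 more ciliary genes that met both limits, the tektin-3 gene c155866_g1, with 834, 122 and 14.2 FPKM in Pre-CL, CL and PL, and the ciliary dynein intermediate chain c154991_g1, with 87.5, 11.5 and 3.14 FPKM. The 2 of the set were a dynein light chain (c85823_g2), a small subunit shared by dynein motors, with 896, 164 and 36.3 FPKM in Pre-CL, CL and PL, and a tektin-3-like gene (c150230_g3), which encodes a filament of the ciliary microtubule doublet in vertebrates, with 581, 94.4 and 19.4 FPKM. The remaining genes matched by domain were the tektin-family c154249_g1, with 56.3, 7.70 and 0.93 FPKM, and c128323_g1, with 110, 13.4 and 0.273 FPKM, whose protein hit is a C1q protein.

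A list built on homologues of ciliary genes in vertebrates held 8 genes of the set, out of 14 with at least 50 FPKM in Pre-CL. This list was formed after the values were seen, so the count is a description only. It held both tektin genes and added genes close to FAM166B (c144315_g1), C1orf194 (c154571_g1), TTC25 (c154757_g1), TEPP (c145821_g1), C20orf85 (c132871_g1) and LRRC23 (c142723_g1). The first of these, c144315_g1, had 199, 19.0 and 0.04 FPKM in Pre-CL, CL and PL, and the second, c154571_g1, had 172, 25.9 and 3.81 FPKM and 12 predicted miRNAs. The 8 genes had a median CL level at 14.4% of Pre-CL. Of the tektins outside the set, c153806_g3, with 361, 81.7 and 37.1 FPKM, missed the limit on the fold.

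The remaining abundant genes had few or no clues to function. A caveolin-1-like gene (c139260_g1), from the family that coats plasma membrane invaginations in vertebrates, had 2564, 255 and 1.33 FPKM in Pre-CL, CL and PL. The gene c118599_g1, with a WAP four-disulfide core domain often found in secreted protease inhibitors, had 1787, 113 and 0.487 FPKM. The gene c118446_g1, annotated only by a cytochrome c oxidase subunit II domain, had 1566, 258 and 0.04 FPKM. Without any informative annotation, c127767_g1, c124783_g1 and c94761_g1 had 0, 1.50 and 0.297 FPKM in PL, against 1539, 1395 and 1222 FPKM in Pre-CL.

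Transporters and genes with plant or algal matches formed small groups. Of 26 transport genes with at least 50 FPKM in Pre-CL, 5 belonged to the set (19.2%, against 23.3% of all 795 genes). Among them was c125507_g1, with 122, 7.14 and 0.0433 FPKM in Pre-CL, CL and PL. Its protein hit is an oyster cationic amino acid transporter, but its only domain is that of cystatin, a protease inhibitor. Both glycine transporters, c151517_g3 and c143290_g1, had 1.63 and 2.03 FPKM in PL, against 80.4 and 69.5 FPKM in Pre-CL. The larvae were fed algae, and 19 genes of the table had a top hit in a plant or alga. The only one in the set was the superoxide dismutase c147734_g1, whose closest protein was from cotton. Of 3 genes with food algae or microbe terms and at least 50 FPKM in Pre-CL, 2 belonged to the set, 1 of them by its protein hit. The 70 genes of the set without a protein hit could not be placed by their top hit. Toxin terms matched 2 genes of 18 (11.1%), in both cases by a domain only. A conotoxin-like gene that met both limits, c124801_g1, with 9144, 2226 and 0.133 FPKM in Pre-CL, CL and PL, was among those left out by name.

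**Figure D3:**
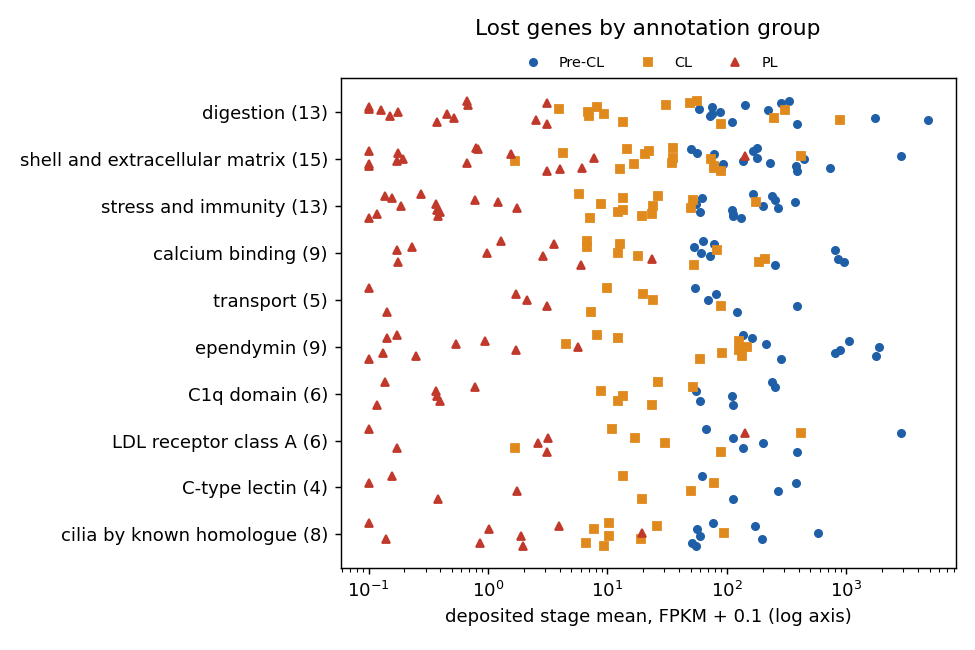
Deposited stage means (horizontal log axis, FPKM + 0.1) of the lost genes in 10 annotation groups, with the number of genes in parentheses; blue circles are Pre-CL, orange squares CL and red triangles PL, and a gene can stand in more than 1 group. In the 9 ependymin-related genes PL levels spanned 0 to 5.53 FPKM and Pre-CL levels 136 to 1877 FPKM.

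The set took a share of the pairs close to its share of the genes. The 180 genes took part in 445 of the 30524 pairs (1.46%), being 1.58% of the genes. They had a median of 2 miRNAs per gene, as did all genes of the table, 72 of them had a single miRNA and 18 had at least 6. Longer genes had more predicted miRNAs, with a Spearman's rho of 0.376 over the 180 genes and of 0.357 over all 11401 genes. Of the 195 miRNAs in the table, 73 were paired with the set.

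The most frequent partner was miR-4154-y, predicted for 22 of the 180 genes, followed by miR-5964-y (17), by miR-1988-x, miR-277-y, miR-8158-y and the predicted miRNA with seed GAAAATT (14 each), by miR-315-x, let-7-y and miR-5606-x (13 each), and by the predicted miRNA with seed TACAGAC (12). Together these 10 covered 96 of the 180 genes. A frequent partner in the set was usually a frequent partner in general, since miR-4154-y had 895 target genes in the table, of which 2.46% belonged to the set. The highest share among the 10 was that of miR-1988-x, with 14 of 186 targets (7.53%). Over all pairs of the 73 miRNAs, 2.87% involved the set. When only pairs with a rank correlation of -1 over the 3 stage means were kept, 3 partners shared the first place with 14 genes each, miR-1988-x, miR-277-y and the predicted miRNA with seed GAAAATT.

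The most frequent partner was also among the rarest miRNAs. miR-4154-y had 3, 2 and 2 counts in the PL libraries and none in the 6 larval libraries, 7 counts in all, so neither a fold change nor a test was possible. miR-8158-y had 4, 3 and 2 counts in PL and none in larvae. The predicted miRNA with seed GAAAATT had no count in Pre-CL, 0, 3 and 0 counts in CL, and 5, 2 and 9 in PL. These 3 miRNAs stood at or near the floor of 3 counts and were too rare for the test.

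Of the 73 miRNAs, 36 (49.3%) had no count in Pre-CL and 23 (31.5%) had none in any larval library, against 27.2% and 12.8% of the 195 miRNAs in the table. The direction of the partners was fixed by the choice of opposite profiles. With at most 10 counts in every library were 19 of the 73 (26%), a share close to the 24.6% of the 195, and these 19 accounted for 135 of the 445 pairs. For 32 of the 180 genes, all predicted miRNAs had at most 10 counts in every library. Of the 20 miRNAs that were 18 nt long, 16 had no count in larvae, against 7 of the 53 longer ones. At least 1 of the 18 nt miRNAs was paired with 100 of the 180 genes, including the most abundant gene, cathepsin L, whose single predicted miRNA was miR-5964-y. The counts by length and the count of 32 genes were not made over the whole table. They therefore do not show a trait particular to these genes.

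**Figure D4:**
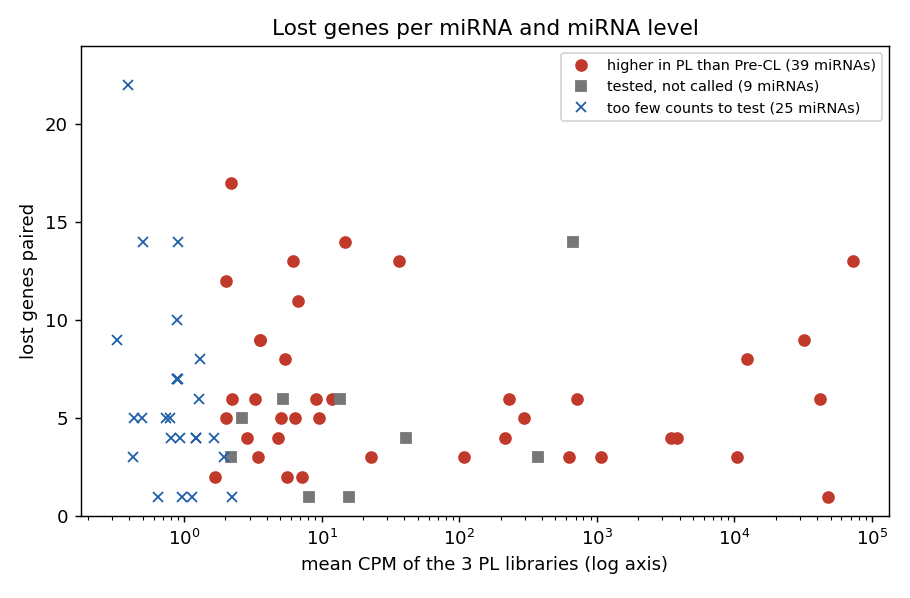
Number of lost genes paired with each of the 73 miRNAs (vertical axis) against the mean CPM of the miRNA in the 3 PL libraries (horizontal log axis); red circles are miRNAs higher in PL than in Pre-CL, grey squares were tested and not called, and blue crosses had too few counts to be tested. The miRNA with the most genes, 22, had 0.394 CPM in PL, and the most abundant, with 13 genes, had 72177 CPM.

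The stage profile of each miRNA was tested on its counts with edgeR's quasi-likelihood test in all 9 libraries, with a call at a Benjamini-Hochberg adjusted p under 0.05 and a fold change over 2. Since the table lists only opposite profiles, the direction of the partners was fixed by its construction. Of the 73 partners, 48 had enough counts, and 39 of these were higher in PL than in Pre-CL, whereas 28.5% of all 214 tested miRNAs were. With libraries scaled by their summed miRNA counts the 39 became 47, and the median log2 fold change of all tested miRNAs was then 0.63 instead of 0.06. Between CL and Pre-CL, 13 of the 48 were higher in CL (10.3% of all 214), and between PL and CL, 23 were higher in PL (22.4%). In edgeR 0 partners were called lower in PL than in Pre-CL (22% of all 214), 0 lower in CL than in Pre-CL (9.35%) and 0 lower in PL than in CL (14.5%). The counts of lower partners were also 0 at an unadjusted p under 0.05 and with DESeq2.

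Partners that were both abundant and higher in PL were paired with a part of the set. Of the 73 miRNAs, 17 had at least 100 CPM in PL, and 15 of these were called higher in PL than in Pre-CL. The 15 were paired with 53 of the 180 genes. A miRNA called higher at any level was paired with 128 genes, and a miRNA called higher already in CL with 52. The same counts were not made over all genes of the table. The choice of opposite profiles also favours such partners, so these counts are a description only.

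miR-315-x was the most abundant partner. It had 142525, 193915 and 122485 counts in Pre-CL, 215307, 207707 and 144130 in CL, and 383768, 422201 and 528145 in PL. The 3 PL libraries lay above all larval libraries. Its mean level was 72177 ± 14318 CPM in PL, against 28718 ± 2280 CPM in Pre-CL (SD, n = 3 each), a log2 fold change of 1.33 ± 0.19 (SE, adjusted p = 0.000557 in edgeR). PL also exceeded CL, at 34539 ± 4120 CPM (SD, n = 3), by 1.06 ± 0.19 on the log2 scale (adjusted p = 0.00198 in edgeR), and this call was lost without PL replicate 3, when the difference was 0.90. The difference between CL and Pre-CL did not pass the test (log2 fold change 0.27 ± 0.19). Its 13 genes included the EF-hand gene c119018_g1, the ependymin-related c139659_g3, the tyrosinase-like c152454_g1 and the ciliary homologues c154571_g1 and c132871_g1, and all 13 pairs had a rank correlation of -1.

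let-7-y carries the seed TGTACAA, whereas GAGGTAG, the seed of the let-7 family known from the nematode Caenorhabditis elegans, was carried by miR-98-x, paired with 4 genes. let-7-y had 45, 66 and 38 counts in Pre-CL, 135, 120 and 117 in CL, and 157, 245 and 282 in PL. The stages did not overlap. The log2 fold change was 1.96 ± 0.29 between PL and Pre-CL (adjusted p = 0.000703 in edgeR) and 1.31 ± 0.29 between CL and Pre-CL (adjusted p = 0.0118). The call in CL was lost without CL replicate 3 (log2 fold change 1.19). Among its 13 genes were c118446_g1, an apolipoprotein D-like gene (c158133_g1) and a collagen VI chain (c131659_g1).

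miR-277-y, known in Drosophila from the control of branched-chain amino acid breakdown, was paired with 14 genes, among them the dynein light chain c85823_g2 and the ciliary homologues c154571_g1, c154757_g1 and c145821_g1. It had 32, 34 and 15 counts in Pre-CL, 46, 47 and 32 in CL, and 55, 134 and 99 in PL. PL libraries were all above larval ones. The log2 fold change between PL and Pre-CL was 1.57 ± 0.35 (adjusted p = 0.00400 in edgeR), and neither other comparison passed both limits. With summed counts PL also passed them over CL (1.56).

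miR-1988-x was abundant and already more frequent at competence. It had 2249, 2641 and 1527 counts in Pre-CL, 4998, 4393 and 3667 in CL, and 3309, 4490 and 4844 in PL. Its level was 399 ± 40.1 CPM in Pre-CL, 799 ± 52.0 CPM in CL and 675 ± 85.7 CPM in PL (SD, n = 3 each). The log2 fold change between CL and Pre-CL, 0.999955 ± 0.19, stood just under the limit of 2-fold (adjusted p = 0.00519 in edgeR). Between PL and CL it was -0.24 ± 0.18, and its sign turned when libraries were scaled by summed miRNA counts (0.33). Between PL and Pre-CL it was 0.76 ± 0.19 (adjusted p = 0.00675 in edgeR), which was under the limit of 2-fold, and 1.33 with summed counts. The gene pairs of miR-1988-x all had a rank correlation of -1, which requires a higher level in PL than in CL. Over the 73 partners, 62 had mean levels that were not lower at each later stage with TMM factors and 72 with total counts.

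Other frequent partners appeared only after metamorphosis or shortly before. miR-5606-x, paired with the caveolin-1-like c139260_g1 and the ependymin-related c131099_g1, had 45, 43 and 25 counts in PL and none in larvae, and was at least 10.8-fold higher in PL than the Pre-CL floor of 3 counts per library (adjusted p = 0.00152 in edgeR). miR-5964-y had 16, 10 and 13 counts in PL and none in larvae, at least 3.79-fold higher (adjusted p = 0.00348). The predicted miRNA with seed TACAGAC, paired with trypsin-1, had no count in Pre-CL, 5, 4 and 5 counts in CL, and 9, 15 and 14 in PL, so that PL was at least 3.46-fold higher than the Pre-CL floor (adjusted p = 0.000413).

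**Figure D5:**
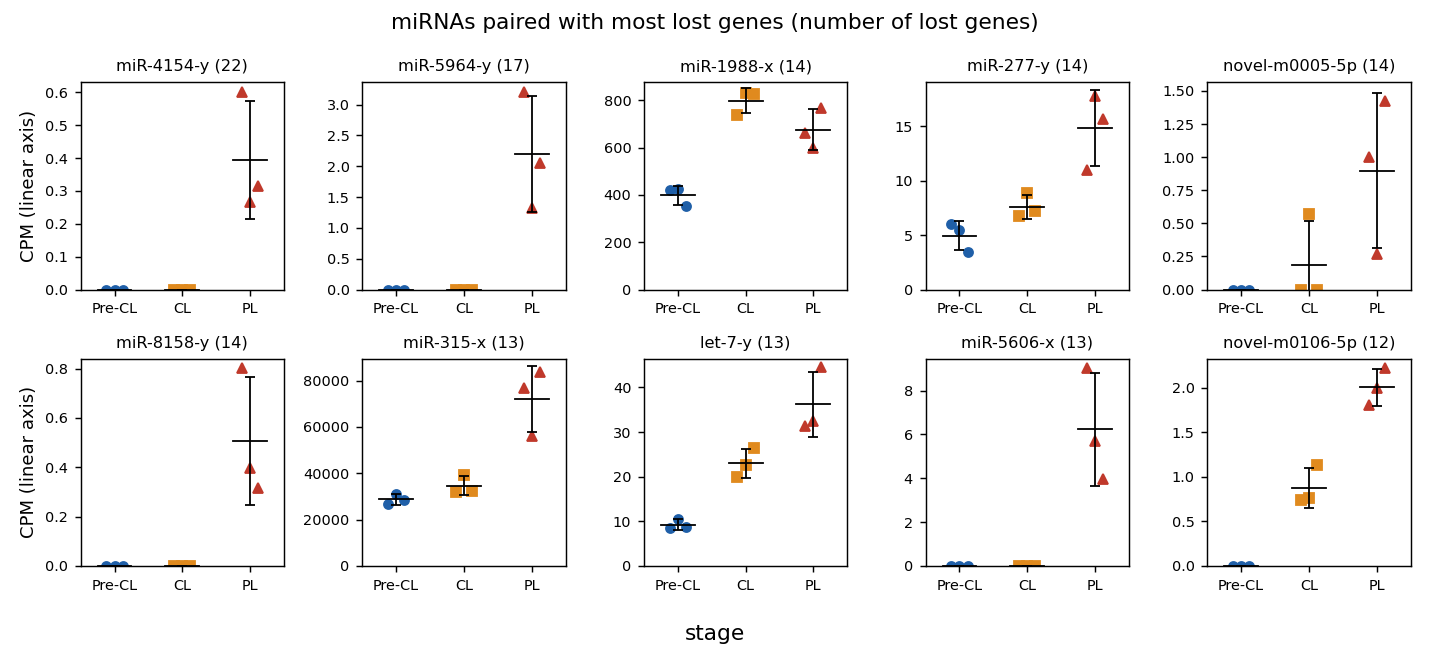
CPM of the 10 miRNAs paired with most lost genes (linear vertical axes, which differ between panels) in Pre-CL, CL and PL; points are libraries, horizontal bars the mean and error bars the SD of 3 libraries, with the number of paired genes in parentheses and the authors' names on the panels of the 2 predicted miRNAs. miR-315-x averaged 72177 CPM in PL and 28718 CPM in Pre-CL, whereas miR-4154-y averaged 0.394 CPM in PL and had no count in larvae.

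The LDL receptor-related gene c154133_g4 had a single predicted miRNA, miR-82-y. This miRNA had 1957, 2447 and 2511 counts in PL and 1189, 1389 and 962 counts in Pre-CL. The difference, 0.74 ± 0.18 on the log2 scale, was larger than the spread of the replicates (adjusted p = 0.00692 in edgeR) but under the limit of 2-fold, which it passed with summed counts (1.33).

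Seed sharing joined some partners. miR-67-y and miR-307-y, shown above, have the same seed, were each paired with 9 genes and together covered 11, among them the peritrophin-like c133938_g1. Their levels were far apart, with 143363, 235234 and 227702 counts of miR-67-y in PL, against 11, 27 and 31 counts of miR-307-y. miR-67-y was higher in PL than in Pre-CL by 1.23 ± 0.22 on the log2 scale (adjusted p = 0.00172 in edgeR). miR-1-z and miR-206-y likewise had a common seed and the same 6 genes, the tektin-3-like c150230_g3 among them. The counting allowed 2 mismatches, so reads of such similar references may not be fully separated.

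Among other partners were miRNAs known from muscle and nerve cells. miR-1-z, a muscle miRNA in many animals, averaged 41837 ± 5607 CPM in PL and 15121 ± 3491 CPM in Pre-CL (SD, n = 3 each), a log2 fold change of 1.47 ± 0.22 (adjusted p = 0.000784 in edgeR). miR-124-y, a neural miRNA, averaged 297 ± 26.3 CPM in PL and 46.1 ± 2.19 CPM in Pre-CL (SD, n = 3 each), a log2 fold change of 2.69 ± 0.25 (adjusted p = 5.1e-05 in edgeR). Its 5 genes included c158133_g1. miR-981-y was paired with 8 genes, including the most abundant ependymin-related gene c141108_g1, and was higher in PL than in Pre-CL by 1.45 ± 0.24 on the log2 scale (adjusted p = 0.00109 in edgeR).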

How the data were processed

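Clean reads were aligned by the authors to miRBase references with up to 2 mismatches, and predicted miRNAs came from MIREAP; the deposited counts per library were used here. The deposited FPKM are the authors' stage means per gene, and the deposited score is the rank correlation between miRNA and gene over 3 stages. Deposited TPM and the authors' columns of log2 ratios and p-values were not used. Counts of 918 references were filtered with filterByExpr, TMM-normalised and tested in edgeR 4.0.16 (R 4.3.3; 214 tested); CPM used the TMM factors. The method was tried on simulated data with less spread between libraries than the real ones had, which does not show how it performs here. Alternatives included DESeq2 1.42.0. Members and annotation lists were chosen with earlier results of these data known. Named genes were the 15 most abundant, the 5 highest and 5 lowest in CL relative to Pre-CL, up to 4 per list and those nearest the limits; named miRNAs were the 10 most often paired and the highest partner of each of the 3 most abundant genes. The family lists (ependymin, C1q, LDL receptor class A, collagen VI, peritrophin, astacin, C-type lectin, ciliary homologues), other genes named within groups, relatives with opposite profiles and miR-98-x, miR-67-y, miR-307-y, miR-206-y, miR-981-y, miR-1-z and miR-124-y were chosen after their values were seen. List terms also matched weak protein domains. No target site sequence was used here.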

Additional observations from a re-analysis of the deposited data

How the results depend on the processing

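The number of genes depended on the choice limits: 374 with a minimum of 10 FPKM and 114 with a minimum of 100 FPKM, against 180. The median CL level stayed between 13.7% and 16.3% of Pre-CL under all limits tried. The count of genes with the larger part of the log2 difference before competence was 104 and 24 with these minimums, 25 with a 50-fold limit and 72 with 1 as pseudocount, against 45; 46 genes, against 22, were already 20-fold lower at competence with a minimum of 10 FPKM. With only rank correlations of -1, the 3 most frequent partners had 14 genes each, against 22 for the first. The log2 fold change of miR-1988-x between PL and CL, -0.24, became 0.33 with total miRNA counts and 0.032 with clean reads as library size; the cause was not tested.

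Leaving out 1 library gave 103 to 119 miRNAs called between PL and Pre-CL (108 in all libraries), 27 to 54 between CL and Pre-CL (42; 27 without CL replicate 2), 67 to 89 between PL and CL (79), and 39 to 45 of the partners (39). With total miRNA counts, 81 miRNAs were higher and 31 lower in PL than in Pre-CL, against 61 and 47, and 76 higher and 17 lower in PL than in CL, against 48 and 31. Deviations of same-numbered replicates correlated at -0.35 to 0.295, with both signs. With 3 libraries per stage this cannot exclude a pairing by number, and the main test modelled none. With a replicate block, 61 miRNAs were higher and 44 lower in PL than in Pre-CL, 36 were called between CL and Pre-CL and 68 between PL and CL, with 39 partners, and the call of miR-5964-y between PL and CL was lost (adjusted p = 0.0535 in edgeR).

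Calls near the 2-fold limit moved. miR-315-x between PL and CL was not called without the filter on low counts (0.995 on the log2 scale), with the 6 libraries compared (0.91) or with repeated sequences taken once (0.98), and miR-1-z between CL and Pre-CL was not called without Pre-CL replicate 1, Pre-CL replicate 2 or CL replicate 2 (lowest 0.96). Gene levels have no replicates, and miRNAs at the floor of 3 counts cannot show a difference.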
